A study of Mus musculus with 8 samples.

Results

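The cytosolic ribosome is built from a small and a large subunit, each made of ribosomal RNA and a fixed set of ribosomal proteins, most of them present in 1 copy per ribosome. Their genes are scattered over the genome yet are transcribed at high and similar rates, and most of their mRNAs begin with a tract of pyrimidines, the 5′ terminal oligopyrimidine (TOP) motif, through which the kinase mTOR controls their translation. In mammals nearly every ribosomal protein gene has spawned many processed pseudogenes, and a few have intact duplicates, some used mainly in the male germ line.

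The genes described here are the cytosolic ribosomal protein genes of mouse. They were taken by symbol: those that start with Rpl (large subunit) or Rps (small subunit) followed by a digit, together with Rpsa, Rplp0, Rplp1 and Rplp2, leaving out pseudogene symbols with -ps and the Rps6k kinases. The rule took 93 of the 55487 genes in the table, 55 with large subunit and 38 with small subunit symbols. Of these, 77 encode proteins of the standard ribosome (46 large, 31 small). The other 16 are paralogs, retrogenes and 2 genes that share the prefix without encoding a ribosomal protein, Rps19bp1 (a binding partner of Rps19) and Rpl7l1 (a ribosome assembly factor). Some of the 16 are annotated as pseudogenes although their symbols lack -ps. In GENCODE M21, Rps12l1, Rpl32l, Rpl6l, Rps3a2 and Rps3a3 are processed pseudogenes, and Rpl37rt and Rps4l are transcribed processed pseudogenes. Of the 93, 91 passed the filter on low counts and were tested. The retrogene Rps12l1 had 0 counts in all 8 libraries, where 3 counts, the limit that a count of 0 allows, equal 0.148 to 0.184 CPM (counts scaled to the library size). The muscle paralog Rpl3l had 3 to 16 counts per WT-labelled library and 5 to 17 per KO-labelled library (0.504 ± 0.321 against 0.486 ± 0.268 CPM, SD, n = 4 each).

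Total RNA was sequenced from germ cells that had been purified from fetal testes by fluorescence-activated sorting. The 4 libraries labelled WT came from littermate controls carrying the Oct4-eGFP reporter, a green fluorescent protein driven by sequences of the pluripotency gene Oct4 (Pou5f1), and the 4 labelled KO came from Rhox10-null mice carrying the same reporter. The reporter is given as Oct4-eGFP+/+ in both groups, and all mice were C57BL/6; the fetal age was not given, and the sources do not tie replicates to animals. The p-values then reflect the spread between these libraries alone, which may be technical. Rhox10 is an X-linked homeobox gene of the male germ line.

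The libraries held 16346977 to 20311338 counts. Rhox10 itself had 18, 25, 19 and 17 counts in the WT-labelled libraries and 14, 10, 18 and 22 in the KO-labelled libraries (log2 fold change −0.28 ± 0.32 SE, adjusted p = 0.767, edgeR quasi-likelihood test), so its counts did not separate the labels, and which part of the gene was deleted is not given in the sources used here. All 12 germ-cell markers listed had counts, but summed per kilobase they reached 59.6 to 67.6 RPKM (TMM-scaled CPM per kilobase of counted length) per library, beside 855 to 948 for 6 Leydig cell, 978 to 1026 for 9 interstitial and 282 to 312 for 10 Sertoli cell markers. Erythroid markers reached 102 to 295 RPKM per library. Endothelial (45.8 to 50.7), duct epithelium (24.1 to 45.8) and macrophage markers (10.3 to 15.3) lay below the germ-cell sum. In such bulk RNA, fewer cells of a type and less RNA per cell cannot be told apart.

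Ribosomal protein mRNAs were lower in the KO-labelled libraries, by a small amount and in both subunits. The summed level of all members was 11241 ± 133 CPM (SD, n = 4) in the WT-labelled libraries and 10520 ± 123 CPM in the KO-labelled libraries, a difference of −6.42%. Large subunit genes summed to 6838, 6871, 6935 and 7027 CPM in WT replicates 1 to 4 and to 6530, 6354, 6466 and 6475 CPM in KO replicates 1 to 4. Small subunit genes summed to 4289, 4280, 4335 and 4390 CPM against 4125, 4008, 4098 and 4022 CPM. For both subunits every KO-labelled library lay below every WT-labelled library. Members took 1.11 to 1.16% of all counts in the WT-labelled libraries and 1.02 to 1.07% in the KO-labelled libraries. As a share of the counts of nuclear protein-coding genes, which sets aside mitochondrial and non-coding RNA, they took 1.71 to 1.76% and 1.59 to 1.65%.

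**Figure D1:**
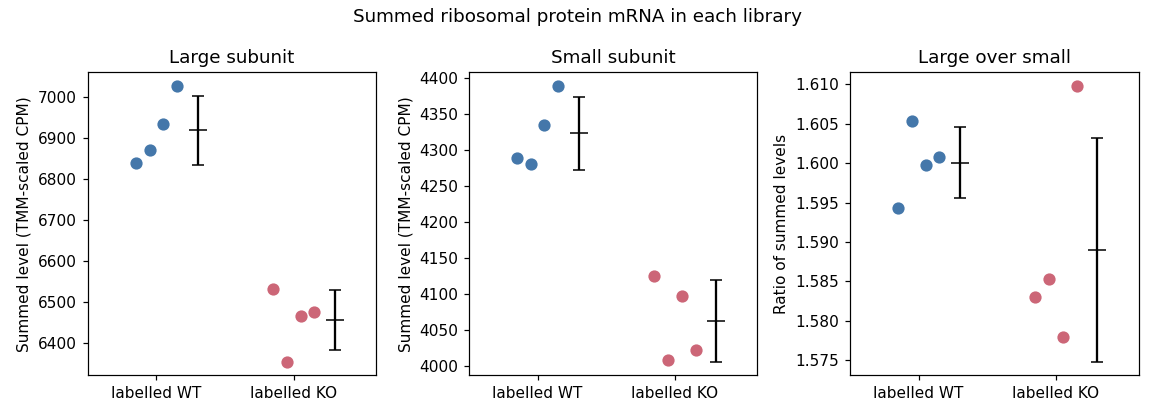
Summed level (CPM) of the genes with large (left) and small subunit symbols (middle) in each of the 8 libraries, and the ratio of the sums (right), with the mean and SD of each group of 4; the axes do not start at 0. The large subunit sums lie between 6838 and 7027 CPM in the WT-labelled libraries and between 6354 and 6530 CPM in the KO-labelled libraries, and the small subunit sums do not overlap either, while the ratios do.

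The subunits moved by similar amounts. The ratio of the large to the small subunit sum was between 1.594 and 1.605 in the WT-labelled libraries and 1.583, 1.585, 1.578 and 1.610 in the KO-labelled libraries; KO replicate 4 had the highest ratio of all and the other KO replicates the lowest, so the groups overlapped. The median log2 fold change, KO over WT, was −0.10 for the 54 large subunit genes tested and −0.10 for the 37 small subunit genes, which differ by −0.003. That difference changed sign when single libraries were left out, ranging from −0.022 to 0.008.

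Of the 91 genes tested, 33 were lower in the KO-labelled libraries at an adjusted p under 0.05 (edgeR quasi-likelihood test, Benjamini-Hochberg over all 23190 genes tested), 0 were higher and 58 were not called. At an unadjusted p under 0.05, 53 members were lower and 0 higher, and DESeq2 and limma voom also called 0 higher. Over all genes tested, 2.8% were called lower and 2.35% higher. In either direction 5.14% were called. The share of members called lower, 36.3%, lies above that background. It was 3.85% among the 12169 other genes within the members' range of level. It was 5.56% among the 3616 other protein-coding genes within their ranges of level and length. These ranges, the 5th to 95th percentile of the members, were log2 CPM 2.69 to 8.3 and 586 to 4061 bases. They are wide, and genes were not matched within them. The median log2 CPM was 6.53 for members and 3.95 for all protein-coding genes tested, so the power to call a change can differ. The direction was shared more widely than the calls. In 88 of the 91 members the log2 fold change was below 0, against 49.3% of all genes tested. Their median was −0.10 (−6.68%), where the median of all genes tested was 0.00 and that of the protein-coding genes within these ranges −0.03. In 29 members every KO-labelled library lay below every WT-labelled library, a separation found in 4.72% of all genes tested and in 8.16% of the protein-coding genes within these ranges. The median coefficient of variation of the members between replicates was 3.68% in the WT group and 4.27% in the KO group. Over all genes tested it was 9.69% and 9.38%. Levels were not matched in that comparison, and members had the higher median level given above.

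**Figure D2:**
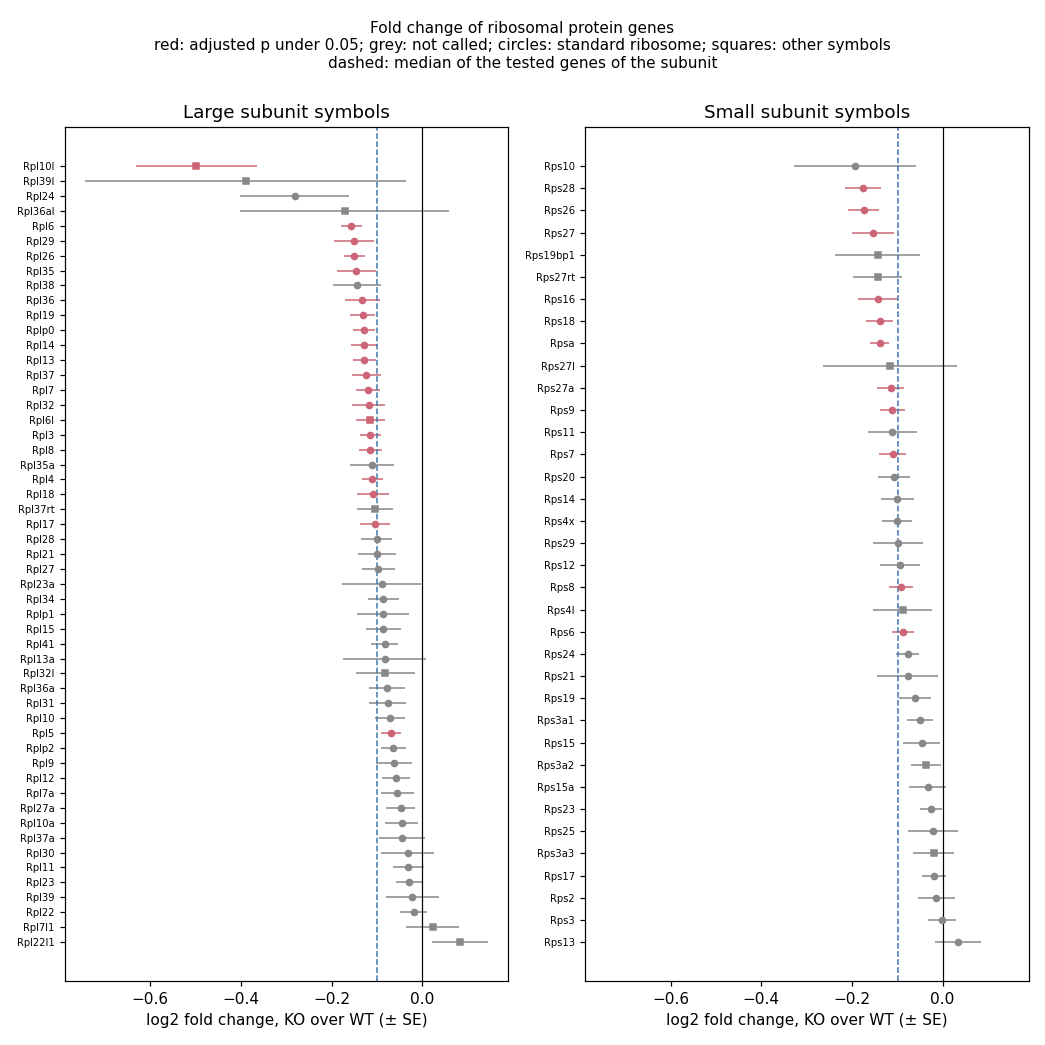
log2 fold change (KO over WT) with its SE for 89 of the 91 tested members, large subunit symbols on the left and small subunit symbols on the right, with called genes in red and the median of each subunit dashed. Nearly all points lie to the left of 0, and all the called genes drawn are lower.

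The shift was not equal in the 4 KO libraries. The median level of the members against their WT mean was −0.06 on the log2 scale in KO replicate 1, −0.12 in replicate 2, −0.11 in replicate 3 and −0.10 in replicate 4. Of the 91 members, 64 lay below their WT mean in KO replicate 1, and 85, 79 and 84 in replicates 2 to 4. In WT replicates 1 to 4 the numbers were 54, 53, 44 and 30. KO replicate 1 therefore lay closest to the WT-labelled libraries, and WT replicate 4 was highest among its group.

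**Figure D3:**
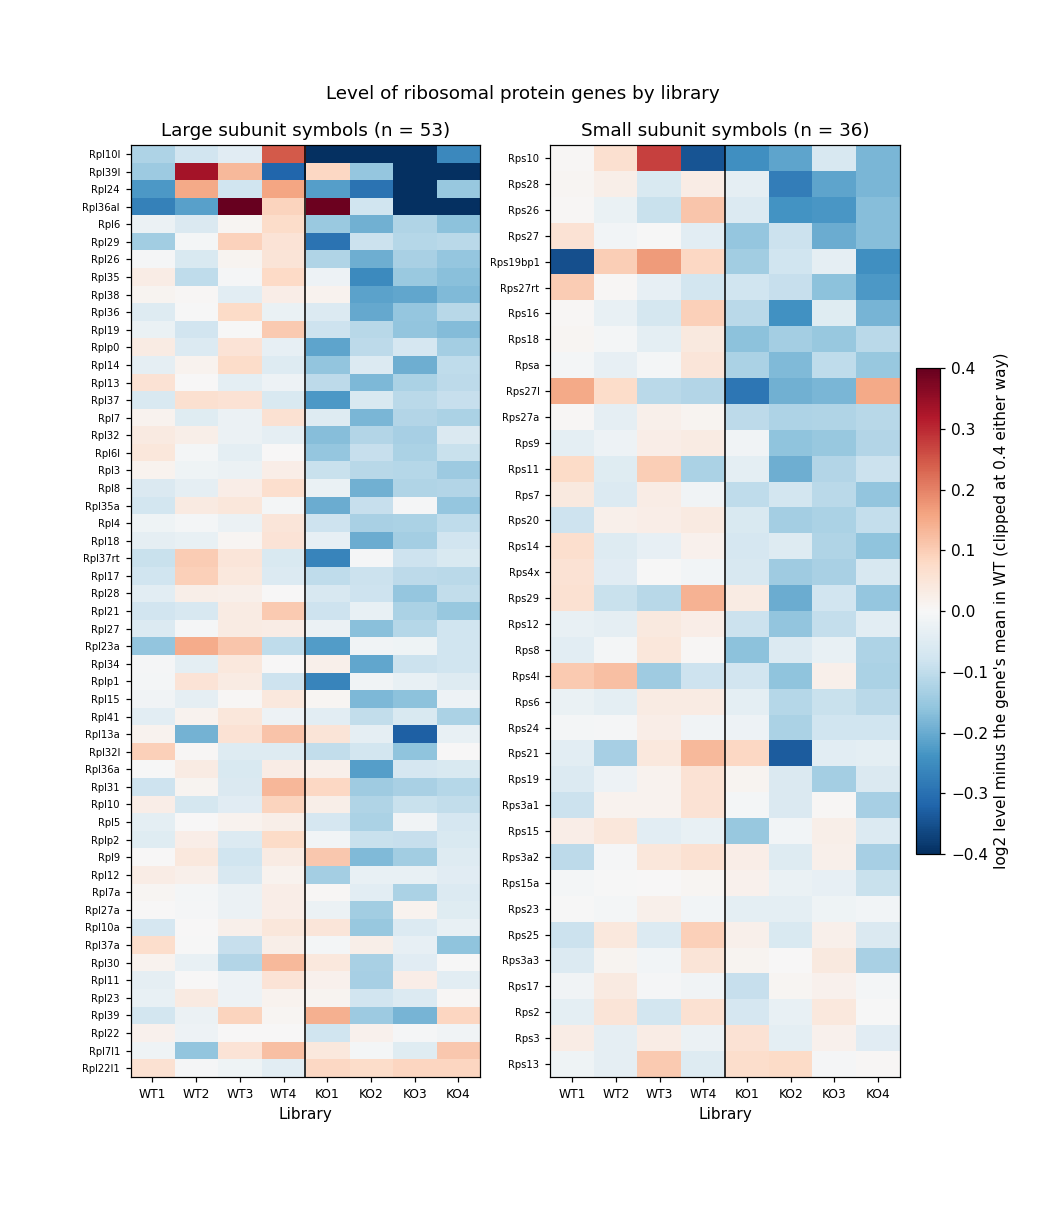
Heat map of the level of 89 of the 91 tested members (rows, ordered by fold change within each subunit) in each library (columns, WT on the left of the line), as log2 level minus the gene's WT mean; blue is lower and red higher. The columns of the KO-labelled libraries are mostly blue, least so in KO replicate 1, whose median is −0.06.

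Among individual genes, the smallest p-values belonged to proteins of both subunits. Rpsa (chromosome 9, 120127689 to 120132369, GRCm38, plus strand), a small subunit protein also known as the laminin receptor and mutated in human congenital asplenia, had 606, 596, 606 and 631 CPM in the WT-labelled libraries and 559, 540, 569 and 549 CPM in the KO-labelled libraries. The groups did not overlap, and the log2 fold change was −0.14 ± 0.02 (SE, adjusted p = 1.79e-08, edgeR). Rpl6 (chromosome 5, 121204481 to 121209241, plus strand), a large subunit protein, had 324, 316, 331 and 347 CPM against 297, 288, 303 and 294 CPM. All 4 KO values were below all WT values (log2 fold change −0.16 ± 0.02 SE, adjusted p = 4.27e-08, edgeR). Rpl26 (chromosome 11, 68901583 to 68906989, plus strand), which sits beside the exit of the nascent peptide and in human cells also binds p53 mRNA, had 343, 329, 346 and 356 CPM against 316, 300, 314 and 309 CPM. Again no KO library reached a WT library (−0.15 ± 0.02 SE, adjusted p = 1.14e-07, edgeR). Rplp0 (chromosome 5, 115559467 to 115563727, plus strand), the base of the large subunit's stalk, on which translation factors are activated, had 334, 314, 339 and 319 CPM against 282, 303, 312 and 297 CPM, separated by a narrow gap (−0.13 ± 0.02 SE, adjusted p = 2.77e-05, edgeR). These 4 genes were called in every alternative analysis that was run.

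Among the next by p were Rpl13, Rpl3 (which lies next to the peptidyl transferase centre), Rpl19 (which forms a bridge between the subunits) and Rpl4 (part of the wall of the peptide tunnel). Their log2 fold changes lay between −0.13 and −0.11, with adjusted p from 0.000109 to 0.000259 (edgeR). Rpl4 had 326, 329, 325 and 341 CPM in the WT-labelled libraries and 312, 302, 303 and 308 CPM in the KO-labelled libraries; every KO value was lower.

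The start regions of Rpl6 and Rpl26, both called throughout, and of a germ-line paralog with its parent gene are shown to set the promoters of members side by side. Each stretch runs from 50 bases before to 30 bases after the RefSeq transcription start in GRCm38.p6, 5′ to 3′ on the gene's strand. Matches to CCGGAAG, the core of an ETS-type site, are in capitals. The same stretches of Rpsa and Rplp0, also called throughout, are not shown and hold no match to CCGGAAG. In the longer windows described below, Rpsa had a match and Rplp0 had none. Rpl6 lies at chr5:121204451-121204530 and Rpl26 at chr11:68901516-68901595, both on the plus strand, Rpl10 at chrX:74270766-74270845 on the plus strand, and Rpl10l at chr12:66284372-66284451 on the minus strand.
Rpl6: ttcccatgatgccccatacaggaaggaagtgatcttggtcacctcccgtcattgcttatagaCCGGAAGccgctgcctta
Rpl26: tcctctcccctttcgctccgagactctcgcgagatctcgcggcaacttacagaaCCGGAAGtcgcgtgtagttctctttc
Rpl10: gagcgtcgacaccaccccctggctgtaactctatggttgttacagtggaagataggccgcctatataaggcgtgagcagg
Rpl10l: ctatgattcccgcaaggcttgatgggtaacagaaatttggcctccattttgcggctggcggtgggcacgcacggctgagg

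RefSeq windows, 250 bases before to 50 after the start, matched 68 of the 93 members with 80 starts. A tract of C followed by at least 7 more pyrimidines on the coding strand, within 50 bases of the start, stood in 60 of the 80 members' windows and in 28.8% of all 32851 windows. CCGGAAG, on either strand, stood in 33.8% of the members' windows and in 8.86% of all windows. The other words were also searched on both strands. The YY1-type word AAGATGGC stood in 8 of the members' windows, against 2.75% of all windows. TATAAA stood in 8 (13.6% of all windows), the E-box CACGTG in 8 (7.15%) and CCAAT in 24 (37.4%). Between members that were called and those that were not, the pyrimidine tract stood in 77.3% of 22 and 74.1% of 58 windows, and CCGGAAG in 45.5% and 29.3%. These are matches of letters, given as a description without a test. Only 21 of the 33 called members had a window. Genes with several starts count more than once, and the windows of members not called include those of the untested Rpl3l.

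By position in the ribosome, a few short lists were looked at, which hold only part of the members. Of 8 proteins around the peptide exit, 4 fell (Rpl17, Rpl19, Rpl26 and Rpl35) and the other 4 were not called, with a median log2 fold change of −0.10. DESeq2 called 2 of the 8 and limma voom 3. Rpl19 and Rpl26 were called by DESeq2 and with the GC and length offset described further on; Rpl17 (adjusted p = 0.124 and 0.2005) and Rpl35 (0.0916 and 0.151) were not. Without 1 library, the adjusted p of Rpl17 was 0.0626 to 0.318 for WT replicates 2 and 3 and all 4 KO replicates, and that of Rpl35 was 0.0566 to 0.191 for WT replicates 1 and 4 and KO replicates 2 to 4 (edgeR). Of the 4 stalk proteins, Rplp0 fell, and Rplp1, Rplp2 and Rpl12 had −0.09, −0.06 and −0.06 without a call. Rplp1 had 198, 207, 204 and 188 CPM against 166, 197, 195 and 192 CPM, where KO replicate 1 stood apart from its group. Rpl5 and Rpl11 form with 5S ribosomal RNA the particle that binds the p53 regulator Mdm2 when ribosome assembly is disturbed. Rpl5 fell, from 407, 419, 423 and 425 CPM to 400, 383, 414 and 399 CPM (log2 fold change −0.07 ± 0.02 SE, adjusted p = 0.0446, edgeR), though KO replicate 3 overlapped the WT range. The call held in 11 of 21 alternatives. It was lost with DESeq2 (adjusted p = 0.0918), upper-quartile factors (0.0977), no filter on low counts (0.164) and the covariate described at the end (0.0693), and when WT replicate 2, 3 or 4 or KO replicate 1, 2 or 4 was left out (0.056 to 0.310, edgeR). Rpl11 had −0.03 ± 0.03 (SE, adjusted p = 0.754). For the mRNA entry, where the ribosome unwinds mRNA, 2 members were listed, Rps2 and Rps3, which had −0.01 and 0.00. Neither was called by edgeR, DESeq2 or limma voom, and 0 of these 2 had an unadjusted p under 0.05 by edgeR. The list was limited to members, so it leaves out the S30 gene Fau, described further on. Fau fell (−0.16, adjusted p = 0.000238, edgeR), so the 2 values do not stand for the whole entry site.

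Rps6, the substrate of the S6 kinases downstream of mTOR, fell from 243, 242, 254 and 253 CPM to 241, 229, 233 and 230 CPM (log2 fold change −0.09 ± 0.03 SE, adjusted p = 0.0170, edgeR). KO replicate 1 lay just under the lowest WT library. The call of Rps6 held in 12 of 21 alternatives. It was lost with the GC and length offset (adjusted p = 0.315, and 0.280 with the replicate block added), no filter on low counts (0.0712) and the covariate (0.284), and when WT replicate 3 or 4 or KO replicate 2, 3 or 4 was left out (0.0504 to 0.0965, edgeR). Rps19, the gene most often mutated in Diamond-Blackfan anaemia, a human failure of red cell production, had 92.1, 94.4, 96.6 and 99.6 CPM against 96.3, 91.9, 87.0 and 91.9 CPM. Its groups overlapped (−0.06 ± 0.04 SE, adjusted p = 0.421, edgeR). Of 18 members known as Diamond-Blackfan anaemia genes in humans, 8 fell and 0 rose, with a median of −0.10, the same as over all members; the 12 with an unadjusted p under 0.05 (edgeR) were all lower. DESeq2 called 5 of the 18 lower and limma voom 9. The lowest of those called were Rps28 (−0.17) and Rps26 (−0.17), both near the mRNA exit channel.

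The most abundant members per kilobase were Rplp1 at a mean of 388 RPKM over the 8 libraries, Rpl26 at 226 and Rpl36 at 205 RPKM in the large subunit, and Rps23 at 220, Rpsa at 184 and Rps3a1 at 181 RPKM in the small. Of these, Rpl26, Rpl36 (log2 fold change −0.13) and Rpsa fell, and Rplp1 (−0.09), Rps23 (−0.03) and Rps3a1 (−0.05) were not called. Rpl36 missed the threshold when WT replicate 3 (adjusted p = 0.157), KO replicate 2 (0.143) or KO replicate 3 (0.0745, edgeR) was left out, with DESeq2 (0.0599), with pseudogene rows added to members (0.0607) and with the covariate (0.331). Across the 91 members Spearman's rho of level and log2 fold change was 0.03, given as a description, since genes are not independent replicates.

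The least abundant standard member of the small subunit had fewer counts than its own pseudogenes. Rps10, at 2.41 RPKM, had 811 counts over the 8 libraries, while the rows of its pseudogenes Rps10-ps1 and Rps10-ps2 had 4306 and 7460. Rps10 alone had a log2 fold change of −0.19 ± 0.13 (SE, adjusted p = 0.533, edgeR). With its pseudogene rows added to it, the value was −0.11 ± 0.04 (SE, adjusted p = 0.0456). If a read was counted at each place it matches, that sum can hold the same read more than once, and its SE and adjusted p are then uncertain. Rpl13a, at 6.01 RPKM the lowest of the standard large subunit, had −0.08 ± 0.09 (SE, adjusted p = 0.752).

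Shared reads bear on the whole family. Of the 93 members, 61 have at least 1 row named as their pseudogene, 299 rows in all, and in 37 members such a row held more counts per kilobase than the gene itself. These pseudogene rows summed to 6348 ± 104 CPM in the WT-labelled libraries and 5943 ± 108 CPM in the KO-labelled libraries (SD, n = 4 each), a difference of −6.37% beside the −6.42% of the members. Across the 85 tested members with a protein-coding transcript in GENCODE M21, a median of 35.9% of the 50-base words of those transcripts also occur in transcripts of other genes. How the authors' counting treated reads with several positions is not stated; the mitochondrial gene mt-Co2 and its near-identical nuclear copy Gm28661 had 285160 and 285738 counts, as they would if a read was counted at each place it matches. Rows of genes and copies may share reads, and single-gene values of members with copies are uncertain.

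Members with few shared words and members with many had similar values. The 10 members with under 10% of shared words had a median log2 fold change of −0.11, 9 of them below 0 and 3 called, among them Rpl8 and Rpl10l, and the 75 others had −0.10, 73 below 0 and 29 called. The 30 tested members without a pseudogene row had a median of −0.11 and 9 calls. That set is not free of copies, so it does not set shared reads aside. It holds Rpl6 and its retrogene Rpl6l, and Rps3a1, 61.4% of whose words occur in the retrogene Rps3a2. With all pseudogene rows added to their genes, 38 members were called lower (2.81% of all genes in that fit) and 0 higher, and the median was −0.10. Those sums can count a shared read more than once. Rpl8 (large subunit) had 262, 267, 278.6 and 286 CPM against 268, 239, 251 and 252 CPM, with KO replicate 1 inside the WT range (log2 fold change −0.11 ± 0.03 SE, adjusted p = 0.000856, edgeR). Its call was lost with the GC and length offset (adjusted p = 0.293, and 0.176 with the replicate block added). Rps3, with 2.83% of its words shared, had 135, 129, 135 and 131 CPM against 138, 129, 134 and 128 CPM, with no separation of the groups.

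Among the paralogs, Rpl10l had the lowest log2 fold change of all members. Rpl10l (chromosome 12, 66283379 to 66284401, minus strand) is an autosomal retrogene of the X-linked Rpl10 and in mouse is needed for male meiosis, when the X chromosome is silenced. It had 6.14, 6.34, 6.47 and 7.92 CPM in the WT-labelled libraries and 4.52, 4.18, 4.62 and 5.59 CPM in the KO-labelled libraries. The groups did not overlap, although KO replicate 4 and WT replicate 4 were each the highest of their group (log2 fold change −0.50 ± 0.13 SE, adjusted p = 0.00781, edgeR). It missed the threshold when WT replicate 4 was left out (−0.41, adjusted p = 0.0856) and when KO replicate 2 was (−0.45, adjusted p = 0.0523, edgeR). The call of Rpl10l was lost with the covariate as well (−0.67, adjusted p = 0.444, edgeR). Its parent Rpl10 had 120, 112, 114 and 125 CPM against 120, 108, 111 and 110 CPM, with overlap (−0.07 ± 0.03 SE, adjusted p = 0.262). Per kilobase Rpl10 was at 56.1 and Rpl10l at 5.60 RPKM, means over the 8 libraries. Of the words of Rpl10l, 7.60% occur in other transcripts.

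Rpl22l1, the paralog that Rpl22 represses in mouse, was the 1 member whose 4 KO libraries all lay above all WT libraries, a separation found in 4.72% of all genes tested. It had 27.4, 26.2, 25.9 and 25.5 CPM against 27.8, 27.6, 27.8 and 27.9 CPM, a difference too small for a call (log2 fold change 0.08 ± 0.06 SE, adjusted p = 0.583, edgeR). Rpl22 itself had 148, 145, 147 and 147 CPM against 139, 149, 146 and 145 CPM (−0.02 ± 0.03 SE, adjusted p = 0.843). Rpl39l, the testis paralog of the X-linked Rpl39, was near the limit of detection, with 0.782, 1.09, 0.947 and 0.694 CPM against 0.917, 0.777, 0.525 and 0.512 CPM. Its groups overlapped (−0.39 ± 0.35 SE, adjusted p = 0.678). Rpl39 had −0.02 ± 0.06 (SE, adjusted p = 0.914).

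**Figure D4:**
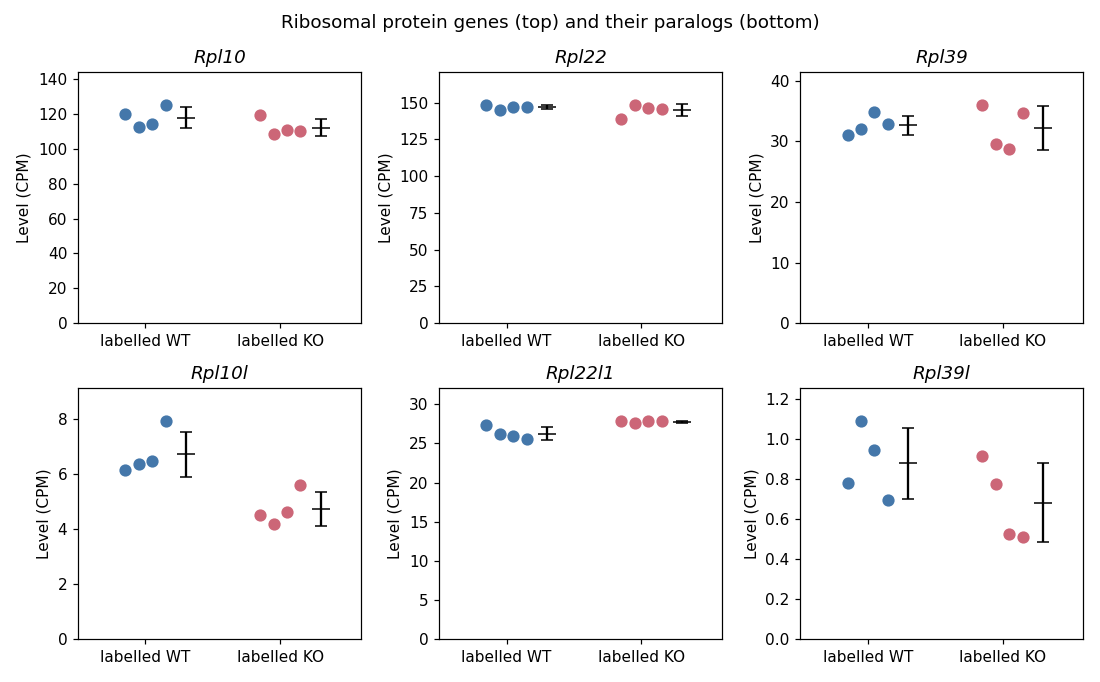
Level (CPM, axes from 0 and different between panels) of Rpl10, Rpl22 and Rpl39 above and of their paralogs Rpl10l, Rpl22l1 and Rpl39l below, 1 point per library with the mean and SD of each group of 4. Among these 6 genes the groups are apart in Rpl10l (lower in KO) and in Rpl22l1 (higher in KO, by less than the test calls).

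Of the 14 tested members outside the standard ribosome, Rpl10l and Rpl6l fell, 0 rose and 12 were not called. Rpl6l, a retrogene of Rpl6 on chromosome 10, had 127, 123, 120 and 123 CPM against 111, 116, 113 and 116 CPM (log2 fold change −0.11 ± 0.03 SE, adjusted p = 0.0131, edgeR), without overlap. Since 41.6% of the words of Rpl6 occur in Rpl6l, the 2 rows can share reads. The adjusted p of Rpl6l was 0.138 with a correction for GC content and length and 0.871 with the covariate. It was 0.0777 without WT replicate 1 and 0.0567 without KO replicate 1 (edgeR), so the call did not hold in these fits. The retrogenes Rps27rt (−0.14), Rpl37rt (−0.10), Rps3a2 (−0.04), Rps3a3 (−0.02) and Rpl32l (−0.08) were not called; 91.1% of the words of Rps27rt occur in Rps27, which fell (−0.15, adjusted p = 0.0269). The call of Rps27 was lost with the GC and length offset (adjusted p = 0.148, and 0.152 with the replicate block added) and with the covariate (0.925). It was also lost on dropping 1 of WT replicates 1 and 3 and KO replicates 3 and 4 (0.0533 to 0.111, edgeR). Rpl37rt was called with scaling by library totals (0.0379) and without WT replicate 1 (0.0316) or KO replicate 2 (0.036). Rps4l (−0.09), the p53-inducible Rps27l (−0.12) and Rpl36al (−0.17), the autosomal copy of the X-linked Rpl36a, were not called either. Rps19bp1 had −0.14, with adjusted p = 0.496, and Rpl7l1 0.02, with adjusted p = 0.910 (edgeR).

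Of the 4 X-linked members, Rps4x had 120, 111, 115 and 114 CPM against 110, 104, 105 and 110 CPM, just missing the threshold (log2 fold change −0.10 ± 0.03 SE, adjusted p = 0.0529, edgeR). No KO library reached a WT library in Rps4x. Rpl36a had −0.08, Rpl10 −0.07 and Rpl39 −0.02. None of the 4 was called by edgeR, DESeq2 or limma voom, and 3 had an unadjusted p under 0.05 by edgeR. Rps4x was called in 7 of 21 alternatives, among them the size factors of DESeq2 (adjusted p = 0.0488), scaling by library totals (0.0182), the replicate block (0.0455) and the fits without WT replicate 2 (0.0359) or KO replicate 1 (0.0391, edgeR). Rps13, a small subunit protein, was the 1 standard member with a log2 fold change above 0 (0.03 ± 0.05 SE, adjusted p = 0.837).

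Fau and Rack1 encode ribosomal proteins that the symbols miss. Fau, a fusion of a ubiquitin-like protein with S30, had 107, 110, 113 and 112 CPM against 101, 91.6, 106 and 95.7 CPM and fell without overlap (log2 fold change −0.16 ± 0.03 SE, adjusted p = 0.000238, edgeR). Rack1, a signalling scaffold on the small subunit head, had −0.05 ± 0.03 (SE, adjusted p = 0.341). Rps27a, a ubiquitin fusion and a member, fell from 151, 146, 152 and 151 CPM to 140, 138, 138 and 139 CPM (−0.11 ± 0.03 SE, adjusted p = 0.00563, edgeR), with a clear gap between the groups.

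Other mRNAs with a TOP motif were also lower in part. Of 15, 5 fell, 0 rose and 10 were not called, with a median log2 fold change of −0.08; the 7 with an unadjusted p under 0.05 (edgeR) were all lower, and DESeq2 and limma voom also called 5 lower and 0 higher. Those that fell were the elongation factors Eef1a1 (−0.08, adjusted p = 0.00140), Eef1d (−0.15, adjusted p = 0.00944) and Eef2 (−0.08, adjusted p = 0.00399), the poly(A)-binding protein Pabpc1 (−0.09, adjusted p = 0.00471) and Tpt1 (−0.12, adjusted p = 2.03e-05, all edgeR). Eef1d missed the threshold without KO replicate 4 (adjusted p = 0.087), and Pabpc1 without WT replicate 4 (0.0787) or KO replicate 2 (0.0776, edgeR). With the covariate described at the end, the calls of Eef1a1 (adjusted p = 0.715), Eef1d (0.804), Eef2 (0.526) and Pabpc1 (0.141, edgeR) were lost. Tpt1 was called in all 21 alternatives. Eef1a1 had 1052, 1076, 1054 and 1087 CPM against 1035, 1000, 993 and 1017 CPM, without overlap. Naca (−0.02), Eif4b (0.01) and Hnrnpa1 (−0.01) were not called.

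Genes of ribosome assembly were mostly not called. Of 66, which make and process ribosomal RNA or assemble subunits, 3 fell and 1 rose (4.55% and 1.52%, beside 2.8% and 2.35% of all genes tested), with a median log2 fold change of −0.01. Limma voom gave the same counts, and DESeq2 called 1 lower and 0 higher. Heatr1, needed for transcription and early processing of ribosomal RNA, had 93.1, 87.2, 89.3 and 95.3 CPM against 81.0, 68.8, 68.4 and 69.4 CPM. Its groups did not overlap (−0.34 ± 0.04 SE, adjusted p = 2.96e-13, edgeR). Bysl, a factor of small subunit maturation (−0.23, adjusted p = 0.0157), and Nop56, of the box C/D methylation complex (−0.10, adjusted p = 0.0276), fell as well. Dkc1, the pseudouridine synthase, rose from 29.2, 28.1, 30.6 and 30.02 CPM to 33.5, 33.6, 33.6 and 33.7 CPM (0.19 ± 0.06 SE, adjusted p = 0.0300, edgeR). Heatr1 was called in all 21 alternatives. With DESeq2 the adjusted p was 0.0604 for Bysl, 0.115 for Nop56 and 0.0596 for Dkc1, so their calls were lost. They were lost also when single libraries were left out: Bysl for WT replicates 1 and 2 and KO replicates 2 and 4 (0.0532 to 0.111), Nop56 for WT replicates 1, 3 and 4 and KO replicates 2 and 3 (0.0536 to 0.278) and Dkc1 for WT replicates 1 and 2 and all 4 KO replicates (0.0525 to 0.133, edgeR). Dkc1 was not called with the GC and length offset either (0.0694). With the covariate the adjusted p was 0.426 for Bysl, 0.135 for Nop56 and 0.863 for Dkc1 (edgeR), so these calls were lost there too. Of 16 genes of the mTOR complex and its TOP regulators, Mtor fell (168.6, 165, 158 and 163 CPM against 147, 147, 154 and 155 CPM, −0.12 ± 0.03 SE, adjusted p = 0.00283, edgeR), 15 were not called, among them the TOP-binding repressor Larp1 (0.05), and the median was 0.02. The call of Mtor was lost with the covariate (adjusted p = 0.506, edgeR).

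The ribosomal proteins of mitochondria, which form another ribosome, were tested as 77 Mrpl and Mrps genes. None was called by edgeR, DESeq2 or limma voom, and 11 had an unadjusted p under 0.05 by edgeR. Their median log2 fold change was −0.06, 54 of 77 were below 0, and they summed to 1081 ± 11.02 CPM in the WT-labelled libraries and 1046 ± 13.0 CPM in the KO-labelled libraries (SD, n = 4 each), a difference of −3.22%. No test compared them with the cytosolic genes.

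Gene length moved with the fold changes of protein-coding genes. Across deciles of length of all protein-coding genes tested, the median log2 fold change went from −0.06 in the shortest, 72 to 1729 bases, to 0.02 in the longest. The members are short, with a median counted length of 1719 bases against 4374 for protein-coding genes. The 30 shortest had a median of −0.11, the next 30 −0.10 and the 31 longest −0.08, and Spearman's rho with length was 0.27 and with GC content −0.26 (91 genes, a description). With an offset for GC content and length per library, 23 members were called lower (2.75% of all genes in that fit), 21 of them among the 33, and 0 higher, and the median was −0.08, with 84 of 91 below 0.

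**Figure D5:**
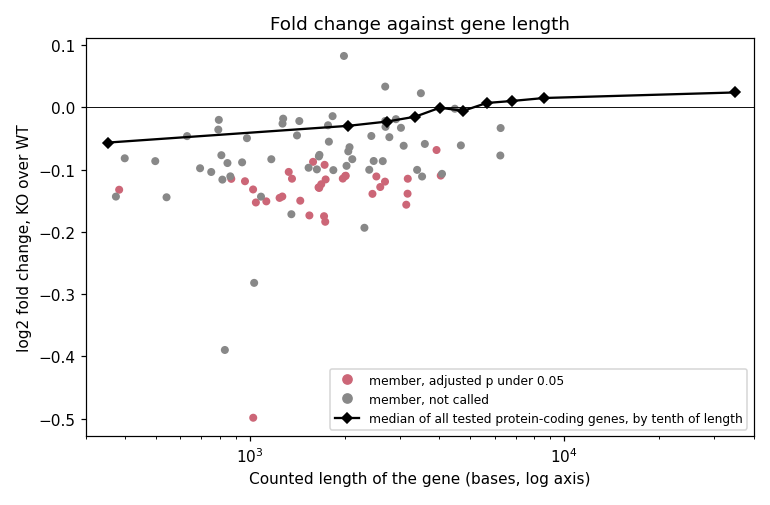
log2 fold change (KO over WT) against counted gene length (log axis) for the 91 tested members, called genes in red and others in grey, with the medians of all tested protein-coding genes by decile of length as black diamonds. The black line rises from −0.06 to 0.02, and most members lie below it.

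Markers of other cells differed between the groups alongside the members. Of 12 erythroid markers tested 6 fell, and their sum was 247 to 259 CPM in the WT-labelled libraries and 110 to 115 CPM in the KO-labelled libraries. The 4 Leydig cell genes that fell, Cyp11a1, Cyp17a1, Hsd3b1 and Star, had log2 fold changes from −0.15 to −0.12, and that list of 6 summed to 2859 to 2896 CPM against 2603 to 2647 CPM. Of 12 markers of duct epithelium 11 rose, and their sum was 60.0 to 67.1 CPM against 109 to 120 CPM. Sertoli cell markers (3 of 10 fell) summed to 887 to 907 against 835 to 856 CPM, endothelial markers (3 of 11 rose) to 244 to 255 against 267 to 276 CPM, and interstitial markers (1 of 9 fell) to 8234 to 8322 against 7975 to 8218 CPM. DESeq2 and limma voom called 0 of the 9 interstitial markers, 3 of which had an unadjusted p under 0.05 by edgeR, and DESeq2 called 2 of the endothelial markers. The 6 macrophage markers tested had 0 calls by edgeR, DESeq2 or limma voom, 1 with an unadjusted p under 0.05 by edgeR, and the 11 listed summed to 27.5 to 28.5 against 22.4 to 24.2 CPM. Germ-cell markers (1 of 11 rose, Dazl, and 2 fell, Piwil2 and Dnmt3l) summed to 201 to 215 against 187 to 195 CPM. Among all these lists no marker was at 0 in every library.

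The somatic and blood marker lists were averaged into 1 covariate per library. Their median log2 fold changes went both ways: duct epithelium 1.05 and endothelial 0.22, against erythroid −0.49, macrophage −0.19, Leydig −0.12, Sertoli −0.06 and interstitial −0.03. The covariate therefore follows no single cell type and is not a measure of cell composition. With this covariate, 6 members were called lower and 0 higher, where 0.272% of all genes tested were called lower. They were Rpsa, Rpl6, Rpl26, Rplp0, Rpl8 and Rps21. The median log2 fold change of the members in that fit was −0.12, with 85 of 91 below 0, and the SE of Rpl13, for example, was 0.05 there and 0.03 without the covariate. The part of these other cells in the level of the ribosomal protein genes was not tested.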

How the data were processed

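Total RNA (1 ng per library) was sequenced from 8 libraries, 4 per group, with a stranded kit for very low input. The authors deposited a table of raw counts per gene without normalization. The submitters' processing notes name GRCm38 as the build and list STAR (2.5.2b), featureCounts, Subread and DESeq2; settings, strand and handling of reads with several positions are not given in the sources used here. Symbols came from GENCODE M21 for 55141 of 55487 IDs, 99.35% with the same position; promoter sequences came from RefSeq (GRCm38.p6).

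Counts were tested in R 4.3.3 with edgeR 4.0.16: filterByExpr, TMM scaling, robust quasi-likelihood test of libraries labelled KO against WT, two-sided, Benjamini-Hochberg over 23190 genes, called at an adjusted p under 0.05. DESeq2 1.42.0 and limma 3.58.1 (voom with sample quality weights) were alternatives. CPM values were TMM-scaled, and RPKM divides them by the counted length in kilobases. Limits from counts cover counting error only. The common biological coefficient of variation was 3.86%. The edgeR test and the GC and length offset were checked on simulated counts, drawn with the same dispersion for all genes. DESeq2, limma voom, the covariate and the replicate block were not checked in that way. Other alternatives were other scalings and filters, the replicate number as a block, offsets for GC content and length, a covariate of somatic and blood markers, protein-coding genes alone, pseudogene rows added to members, the standard ribosome alone, other thresholds and each library left out; restriction to members without pseudogene rows was added after the data had been seen.

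Members, lists and alternatives were chosen with earlier results of these data known. The 42 genes described by rule were the 10 called with the smallest p, the most and least abundant per subunit, the highest and lowest fold change per subunit, all paralogs tested, the X-linked members, Rpl5, Rpl11, Rps6 and Rps19, and ribosomal proteins of other symbols, among them Fau and Rack1. Results of 3 of these genes are not reported here. Genes named as examples from lists, Rps26, Rps27, Rps27a, Rps28, Rpl8, Rps3 and Rpl22 were added after their values were seen. The deposited libraries' replicate numbers did not pair across groups (correlations of same-numbered libraries −0.0165 to 0.0272).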

Additional observations from a re-analysis of the deposited data

How the results depend on the processing

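The direction of the median and the absence of members called higher held under every alternative run. The 33 called members became 6 with the somatic and blood covariate, 21 at an adjusted p under 0.01 and 9 of 30 among members without a pseudogene row. The last set still holds retrogenes. The median log2 fold change of −0.10 moved to −0.077 with the GC and length offset and to −0.077 with that offset and the replicate block together. Counts of calls within 1.5 times of 33 were 24 with DESeq2, 33 with limma voom (32 shared), 28 with upper-quartile factors, 35 with DESeq2 size factors, 41 with library totals, 26 without a filter, 35 at 1 CPM in 4 libraries and 39 at an adjusted p under 0.10; the share of all genes called lower was 1.14 to 3.61% under these scalings, filters and tests. The replicate numbers share only a label; with the replicate block 36 members were called, the 33 and Rplp1, Rps24 and Rps4x, and 23 with the block and the GC and length offset. Leaving out 1 library gave 24 to 33 calls, a median of −0.107 to −0.092 and a large minus small difference of −0.022 to 0.008. That difference was beyond the spread between replicates (SD 0.0197) without WT replicate 1, at −0.022, and within it under the other alternatives run. For single genes described by rule, 824 of the values under alternatives kept their side of the threshold, 39 lost it and 12 gained it. Reads shared with copies limit single-gene values, and low counts limit Rpl39l and Rpl36al.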
